A study of Cannabis sativa with 10 samples.

Results

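CRABS CLAW (LOC115699020) and AINTEGUMENTA (LOC115712812) are the Cannabis sativa genes whose closest Arabidopsis proteins are the carpel regulators of those names. They were taken by their gene identifiers, 2 of the 35192 genes listed, and were followed across shoot apices before flowering, at week 1 and week 3 of male flowering, and at week 1 and week 3 of female flowering. In Arabidopsis, CRABS CLAW is a YABBY transcription factor of the developing carpel and nectary, where it acts in carpel fusion, style growth and the end of floral stem cell activity. AINTEGUMENTA is an AP2-type transcription factor of young lateral organs, where it prolongs cell proliferation, and it is also needed for ovule integument growth. Carpels are formed by female flowers, and male flowers of this species carry stamens instead.

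All 10 messenger RNA libraries came from shoot apices of genotype A3, 2 libraries in each of 5 groups. The vegetative apices carried no flower treatment in the labels. Male apices at weeks 1 and 3 came from plants given STS, read here as silver thiosulfate, an inhibitor of ethylene perception used to obtain male flowers from female cannabis plants. Female apices at weeks 1 and 3 were induced to flower with no STS named, so sex and treatment cannot be told apart in any comparison of male with female apices. The labels do not give plant age or day length, and they do not say whether replicates were separate plants, so each p-value reflects nothing but the scatter of these libraries, which may be technical. Levels are FPKM, a fragment count divided by gene length and library depth, which can be compared between genes because they are scaled by length. Differences are given on the log2(FPKM + 1) scale with their standard error (SE) from limma, which was fitted to the 18309 genes that averaged 1 FPKM or more in some group. A gene was called at a Benjamini-Hochberg adjusted p under 0.05.

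Totals were 603616 to 764672 FPKM per library, and depth relative to female week 1 replicate 1, read from the steps of low values, was 0.863 to 1.235. The number of reads is not known. The apex label was checked with 4 meristem genes. Both genes closest to SHOOT MERISTEMLESS and the gene closest to KNAT1 were above 2 FPKM in every library, and WUSCHEL was listed at 0 in both vegetative libraries.

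CRABS CLAW lies on the minus strand of chromosome 8, from 29339970 to 29342670 in assembly ASM2916894v1, a span of 2701 bases with 1 RefSeq transcript. Its closest Arabidopsis protein had 61.08% identity. AINTEGUMENTA, described in the table as the AP2-like ethylene-responsive transcription factor ANT, lies on the minus strand of chromosome 4, from 70048902 to 70053651, a span of 4750 bases with 2 RefSeq transcripts and 71.07% identity to its Arabidopsis match. No other listed gene overlapped either span. The nearest neighbours of CRABS CLAW were 37518 and 35606 bases away, and those of AINTEGUMENTA 86448 and 22276 bases away. The exon positions were not used here.

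CRABS CLAW was low in vegetative apices, present at week 1 in both sexes, and at week 3 high in female and low in male apices. In vegetative libraries its level was 0.677 and 0.305 FPKM in replicates 1 and 2. At week 1 it was 6.97 and 3.99 FPKM in male libraries, against 3.58 and 4.34 FPKM in female libraries. The sexes overlapped at that time, and every week 1 library stood above both vegetative ones. At week 3 it was 0.681 and 0.534 FPKM in male libraries, against 22.8 and 18.6 FPKM in female libraries. The female week 3 libraries were thus the 2 highest of the series, while of the male week 3 libraries replicate 2 lay inside and replicate 1 just above the range of the vegetative ones.

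Ordered by mean, CRABS CLAW was at 20.7 ± 2.95 FPKM in female week 3 apices, then at 5.48 ± 2.11 and 3.96 ± 0.539 FPKM in male and female apices of week 1, at 0.607 ± 0.104 in male week 3 and at 0.491 ± 0.263 in vegetative apices (SD, n = 2 each). Libraries of neighbouring groups overlapped between male and female week 1. They also overlapped between male week 3 and vegetative apices. Among the genes tested, its mean was above that of 65.5% of genes in female week 3 apices but of 2.79% in male week 3 and 8.45% in vegetative apices. At week 1 the share was 32.9% in male and 27.6% in female apices.

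AINTEGUMENTA was already present before flowering, and its lowest values by far were those of male week 3 apices. Its level was 30.3 and 25.1 FPKM in vegetative libraries. At week 1 it was 28.7 and 22.4 FPKM in male libraries, against 20.9 and 25.7 FPKM in female libraries. These 3 groups overlapped with each other. At week 3 it was 6.27 and 5.78 FPKM in male libraries, against 36.5 and 36.7 FPKM in female libraries. Both female week 3 values exceeded every other library, and both male week 3 values were below every other library.

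By mean, AINTEGUMENTA was at 36.6 ± 0.183 FPKM in female week 3 and 27.7 ± 3.64 in vegetative apices, then at 25.5 ± 4.46 and 23.3 ± 3.4 FPKM in male and female apices of week 1, and at 6.02 ± 0.345 in male week 3 apices (SD, n = 2 each). The first and the last of this order did not overlap with their neighbours. Its mean was above that of 80.7% of the genes tested in female week 3 apices and above 30.3% in male week 3 apices.

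**Figure D1:**
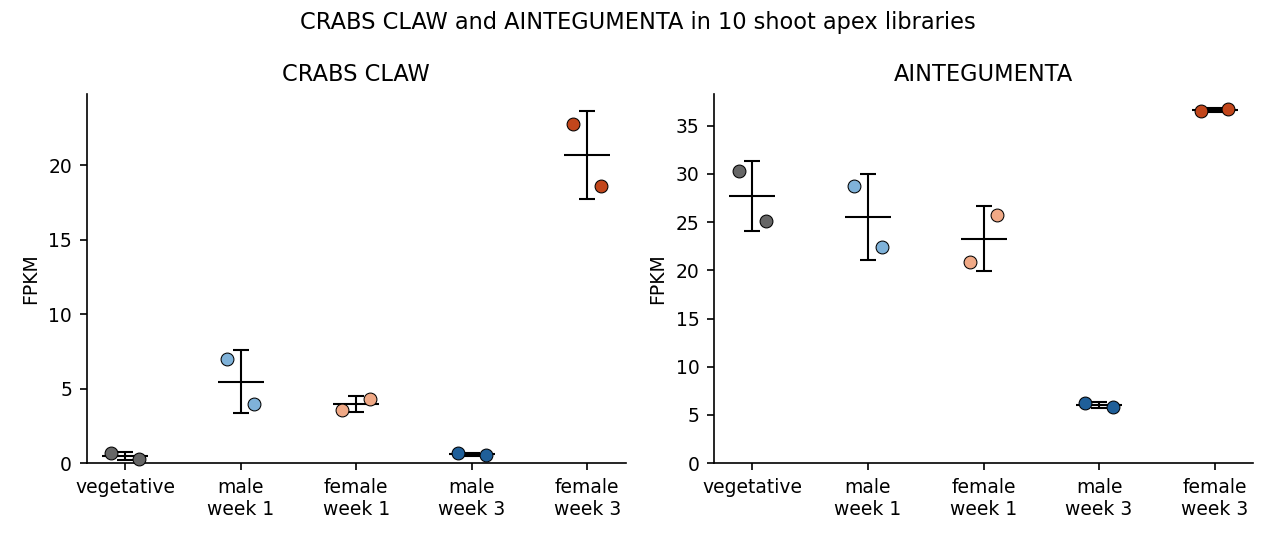
FPKM of CRABS CLAW (left) and AINTEGUMENTA (right) in each of the 10 libraries, on linear axes from 0; points are libraries, and horizontal bars with error bars are the mean and SD of 2 libraries. Female week 3 apices hold the highest values of both genes, at 18.6 to 22.8 and 36.5 to 36.7 FPKM, and male week 3 apices the lowest of AINTEGUMENTA, at 5.78 to 6.27 FPKM.

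The level of CRABS CLAW relative to AINTEGUMENTA also differed between the groups. It was 2.24% and 1.21% of the AINTEGUMENTA level in vegetative libraries. At week 1 it was 24.3% and 17.8% in male libraries, against 17.1% and 16.9% in female libraries. At week 3 it was 10.9% and 9.24% in male libraries, against 62.4% and 50.6% in female libraries. AINTEGUMENTA was therefore the more abundant of the pair in each of the 10 libraries, and the gap was smallest in female week 3 apices.

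The comparison of male with female apices at week 3 asks how the regulators differ once the flowers have diverged. Both genes were lower in male apices, CRABS CLAW by more. CRABS CLAW averaged 0.607 FPKM in male and 20.7 FPKM in female apices, 34-fold lower in male apices, with 27.3-fold and 42.6-fold as the smallest and largest ratio between single libraries. Its log2 difference was -3.75 ± 0.24 (SE; limma adjusted p = 5.03e-07). AINTEGUMENTA averaged 6.02 FPKM in male and 36.6 FPKM in female apices, 6.08-fold lower in male apices, with 5.82-fold and 6.36-fold between single libraries. The log2 difference of AINTEGUMENTA was -2.42 ± 0.16 (limma adjusted p = 6.01e-07). Many genes differed here: 60.3% of the genes tested were called, and 28.6% were called lower in male apices. Only 49 of the 18309 genes tested had a lower log2 difference than CRABS CLAW, and 172 a lower one than AINTEGUMENTA.

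Genes of the stamen moved with this comparison. The summed level of 18 genes matched to markers of stamen, tapetum and pollen was 2208 and 2944 FPKM in male week 3 libraries and between 10.4 and 18.9 FPKM in the other 8 libraries, where 6 to 11 of the 18 were listed at 0. Of the 18, 15 averaged 1 FPKM or more in male week 3 apices alone and so entered the test through that group, which fixed their direction; their calls are therefore not counted here, in a comparison where 31.7% of all genes were called higher. The part of this change in tissue in the lower levels of the members was not tested, and in these bulk apices fewer cells of a type and less RNA per cell cannot be told apart. In the authors' deposited table, which gives female over male, the log2 fold change was 5.02 for CRABS CLAW (adjusted p = 1.07e-29) and 2.55 for AINTEGUMENTA (adjusted p = 2.86e-52).

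At week 1 neither gene was called different between male and female apices. CRABS CLAW had a log2 difference of 0.35 ± 0.24 with a 95% interval of -0.18 to 0.88 (limma adjusted p = 0.904). For AINTEGUMENTA it was 0.12 ± 0.16, with an interval of -0.23 to 0.47 (limma adjusted p = 0.98). With 2 libraries a group, differences within these intervals remain possible. Larger ones could also go uncalled after adjustment over all genes tested. The match of APETALA3 (LOC115714657) was at 1.30 ± 0.26 and was not called (limma adjusted p = 0.132). In all 25 genes, 0.137% of those tested, were called at that time, 0.12% higher and 0.0164% lower in male apices. That count was 5 without female week 1 replicate 2 and 86 without male week 1 replicate 2. The change from week 1 to week 3 then went opposite ways in the sexes. The male change minus the female change was -4.10 ± 0.33 for CRABS CLAW (limma adjusted p = 6.37e-06) and -2.54 ± 0.22 for AINTEGUMENTA (limma adjusted p = 1.01e-05), in a contrast where 45.6% of genes were called, 25.8% higher and 19.9% lower.

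In female apices both genes rose between week 1 and week 3. CRABS CLAW was at 20.7 FPKM at week 3 and 3.96 FPKM at week 1, a ratio of 5.22 with single libraries between 4.28 and 6.36. The log2 difference of week 3 minus week 1 was 2.13 ± 0.24 (limma adjusted p = 0.000162), and 218 of the genes tested rose by more. AINTEGUMENTA rose less, by 0.63 ± 0.16 (limma adjusted p = 0.011), a ratio of 1.57. That call rests on few libraries: the adjusted p was 0.098 when female week 1 replicate 1 was left out, and 0.0629 or 0.064 when replicate 1 or 2 of female week 3 was. Of all genes tested, 35.2% were called in this comparison, 18.7% higher and 16.5% lower at week 3.

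In male apices both genes fell between week 1 and week 3. CRABS CLAW was at 0.607 FPKM at week 3 and 5.48 FPKM at week 1, a log2 difference of -1.97 ± 0.24 (limma adjusted p = 5.21e-05). AINTEGUMENTA was at 6.02 FPKM at week 3 and 25.5 FPKM at week 1, a log2 difference of -1.91 ± 0.16 (limma adjusted p = 3.36e-06). In FPKM CRABS CLAW fell 9.02-fold, between 5.86-fold and 13.1-fold over single libraries, and AINTEGUMENTA 4.24-fold, between 3.57-fold and 4.97-fold. Adding 1 FPKM compresses differences at low levels, which is why the log2 values lie closer together. In all, 61.7% of genes were called between the weeks in male apices, 33.8% higher and 27.9% lower at week 3.

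**Figure D2:**
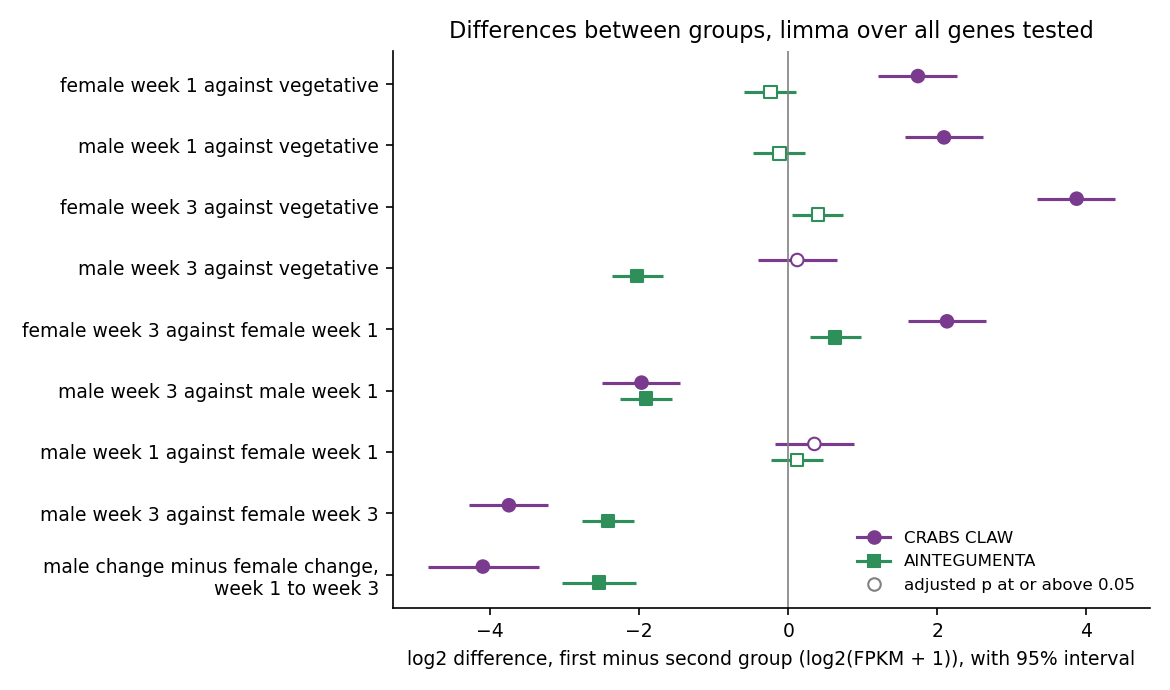
Log2 difference of CRABS CLAW (circles) and AINTEGUMENTA (squares) in each comparison, first minus second named group, on the log2(FPKM + 1) scale; lines are 95% intervals from limma, and open symbols have an adjusted p of 0.05 or more. CRABS CLAW reaches 3.87 in female week 3 against vegetative apices and -3.75 in male against female apices at week 3, and both genes lie near 0 in male against female apices at week 1.

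Against vegetative apices, the 2 regulators differed in when they changed. CRABS CLAW was higher at week 1 in both sexes. The log2 difference was 2.09 ± 0.24 in male week 1 apices (limma adjusted p = 0.0011) and 1.74 ± 0.24 in female week 1 apices (limma adjusted p = 0.00401), with 6.4% of genes called in male apices, 3.54% higher and 2.86% lower, and 4.94% in female apices, 2.67% higher and 2.27% lower. In FPKM this was 11.2-fold in male and 8.06-fold in female week 1 apices, and with 0.1 FPKM added in place of 1 the log2 differences were 3.26 and 2.85. Set beside the same vegetative libraries, AINTEGUMENTA was at -0.12 ± 0.16 in male week 1 apices (limma adjusted p = 0.768) and -0.24 ± 0.16 in female week 1 apices (limma adjusted p = 0.49). Its 95% intervals ran from -0.47 to 0.23 and from -0.59 to 0.11. Of the genes tested, 41 had a higher difference than CRABS CLAW in male and 47 in female apices. With a fit of the male week 1 and vegetative libraries alone, the CRABS CLAW call was lost, at adjusted p = 0.108.

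At week 3 the members went apart in male apices. CRABS CLAW did not differ detectably from the vegetative level, at 0.12 ± 0.24 with an interval of -0.41 to 0.65 (limma adjusted p = 0.683), whereas AINTEGUMENTA was 4.6-fold lower in male week 3 than in vegetative apices (log2 difference -2.03 ± 0.16, limma adjusted p = 2.11e-06). In this comparison 62.8% of genes were called, 34.8% higher and 27.9% lower in male apices. In female week 3 apices CRABS CLAW was 42.1-fold above the vegetative mean, with 27.4-fold to 74.7-fold between single libraries (log2 difference 3.87 ± 0.24, limma adjusted p = 3.24e-06), and 36.5% of genes were called, 19.8% higher and 16.8% lower. AINTEGUMENTA was 1.32-fold above it and did not pass the test, at 0.40 ± 0.16 (limma adjusted p = 0.0736). The authors' deposited table lists AINTEGUMENTA in female week 3 over vegetative apices at a log2 fold change of 0.38 and an adjusted p of 0.0226, and a fit of these groups alone gave an adjusted p of 0.0428.

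Markers of leaf tissue varied within and between the groups. The summed level of 12 light-harvesting and Rubisco small subunit genes was 9654 and 17769 FPKM in male week 1 libraries, 20826 and 15882 in female week 1 libraries, and 18126 and 22691 in vegetative libraries. Within each of these groups the library with the lower leaf sum had the higher CRABS CLAW and the higher AINTEGUMENTA level. The leaf sum was 3473 and 4174 FPKM in male week 3 and 5233 and 5058 FPKM in female week 3 libraries. Again the male library with the lower sum had the higher level of both members, while the female one had the higher AINTEGUMENTA but the lower CRABS CLAW level. Against vegetative apices, 6 of the 11 leaf genes tested were called lower in male week 1 apices, beside 2.86% of all genes tested. In female week 1 apices 5 were lower and 1 higher, beside 2.27% and 2.67% of all genes. In male week 3 apices 10 were lower and 1 higher, beside 27.9% and 34.8%. In female week 3 apices 11 were lower, beside 16.8%. The gene higher in male week 3 apices was a Rubisco small subunit gene (LOC115725363), by 2.08 ± 0.23. Between male and female week 3 apices 2 were called higher and 2 lower in male apices, beside 31.7% and 28.6% of all genes tested. The meristem genes closest to SHOOT MERISTEMLESS (LOC115700665 and LOC115707692) and KNAT1 (LOC115719780) stood 1.06, 0.96 and 0.89 log2 units above vegetative apices in male week 1 apices. All 3 were called there, beside 3.54% of all genes called higher. In female week 1 apices the 3 stood 0.59, 0.72 and 0.64 above vegetative apices. None was called there, and each had an unadjusted p under 0.05. None of the 3 was called by limma between male and female week 1 apices, at 0.46, 0.24 and 0.25, and none had an unadjusted p under 0.05. Of all genes tested, 0.137% were called there. At week 3 these 3 genes moved with both members between the sexes and in male apices over time, but not in every comparison. They were called lower in male than in female apices, at -0.70, -0.56 and -1.42, where 28.6% of all genes tested were. They were also called lower in male apices at week 3 than at week 1, at -0.70, -0.64 and -1.02, where 27.9% were. WUSCHEL (LOC115711960), the other meristem gene, was called higher in both comparisons, at 1.94 and 2.17. It averaged 1 FPKM or more in male week 3 apices alone, so how it entered the test fixed its direction. From week 1 to week 3 in female apices both members were called higher. There the KNAT1 match was called, at 0.65 ± 0.17, beside 18.7% of all genes called higher. The SHOOT MERISTEMLESS matches were not, at 0.47 and 0.15. In male week 3 against vegetative apices AINTEGUMENTA was called lower and CRABS CLAW was not called. The SHOOT MERISTEMLESS and KNAT1 matches were at 0.36, 0.31 and -0.13 there, and none was called. The part of leaf and meristem tissue in the levels of the members was not tested.

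CRABS CLAW belongs to the YABBY family, whose other members mark the abaxial, or lower, side of leaves and floral organs. All 6 other YABBY genes matched by their Arabidopsis protein reached the filter, and 5 of them were called lower in male than in female week 3 apices, where 28.6% of all genes tested were, with a median log2 difference of -1.32 against -0.02 over all genes tested. The match of INNER NO OUTER (LOC115712472), which in Arabidopsis is needed for the outer ovule integument, was at 0 and 0.084 FPKM in male week 3 libraries, against 4.4 and 2.34 FPKM in female week 3 libraries. At week 1 INNER NO OUTER was at 0.543 and 0.176 FPKM in male libraries, against 0.0758 and 0.368 FPKM in female libraries. It is 1 of the 5 genes counted, and its difference of -2.03 is in the median. It averaged 1 FPKM or more in female week 3 apices alone and so entered the test through that group. That makes its call no independent result. Without INNER NO OUTER the middle value of the family is that of YABBY2, -0.85. In vegetative apices the YABBY genes other than INNER NO OUTER ranged widely, with YABBY5 at 105 ± 0.482 FPKM and the FILAMENTOUS FLOWER match LOC115725187 at 7.39 FPKM. The FILAMENTOUS FLOWER match LOC115715807 was at 24.7 ± 3.08 FPKM in male week 3 and 88.7 ± 0.671 FPKM in female week 3 apices, and a second such gene, LOC115704995, was at 12.4 ± 1.49 and 45.1 ± 2.73 FPKM in the same groups. Their log2 differences were -1.81 and -1.78. YABBY2 (LOC115716658) differed by -0.85 ± 0.17 and YABBY5 (LOC115724567) by -0.65 ± 0.11. From week 1 to week 3 in female apices YABBY5 fell, by 1.54 on the log2 scale, while INNER NO OUTER was called higher through its female week 3 level and YABBY2 rose, and the rise of YABBY2 (0.51 ± 0.17, adjusted p = 0.0442) was not called when female week 1 replicate 1 or either female week 3 library was left out, at adjusted p up to 0.325. In male apices YABBY5 and the FILAMENTOUS FLOWER matches LOC115704995 and LOC115715807 fell over the same time, by 2.11, 2.21 and 1.70. The remaining FILAMENTOUS FLOWER match (LOC115725187) was not called, at -0.18 ± 0.30. None of the 6 was called between male and female apices at week 1 by limma, where 0.137% of all genes tested were, nor did any have an unadjusted p under 0.05.

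**Figure D3:**
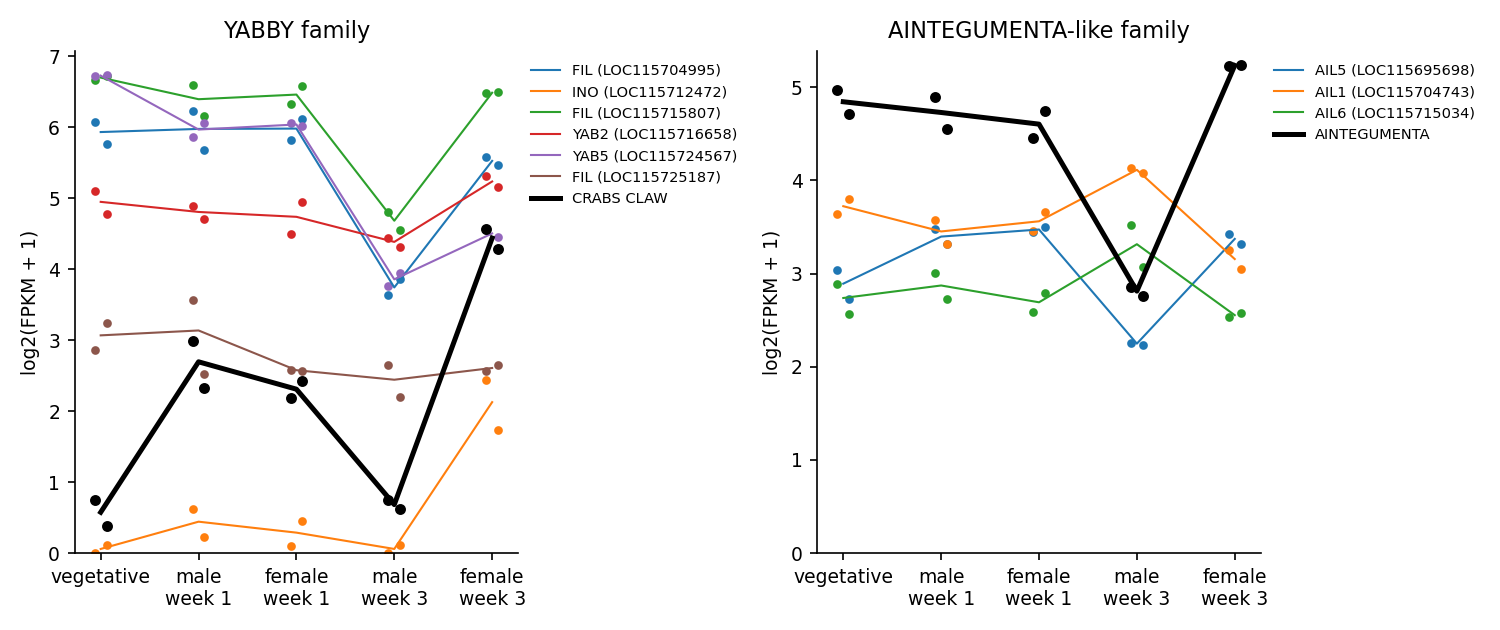
Levels on the log2(FPKM + 1) scale by group for the YABBY family (left) and the AINTEGUMENTA-like family (right), restricted to genes that reached the filter; points are libraries, lines join the group means, and the thick black line is CRABS CLAW or AINTEGUMENTA. CRABS CLAW and the INNER NO OUTER match have their highest level in female week 3 apices, and AIL1 and AIL6 lie higher in male than in female apices at week 3, where AINTEGUMENTA lies lower.

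Of the 3 relatives of AINTEGUMENTA tested, 2 were called higher and 1 lower in male than in female week 3 apices. Of all genes tested, 31.7% and 28.6% were, and at such shares 3 genes say little about the family. AINTEGUMENTA-like and PLETHORA proteins act in shoot and root meristems and organ primordia in Arabidopsis. Of 7 matched genes 3 reached the filter, all called between male and female week 3 apices, as were 60.3% of all genes tested, and the other 4, all closest to PLETHORA1 or PLETHORA2, stayed at or below 0.467 FPKM in every library. AIL5 (LOC115695698) was lower in male week 3 apices, at 3.75 ± 0.0577 FPKM against 9.35 ± 0.521 in female week 3 apices (log2 difference -1.12 ± 0.14, limma adjusted p = 8.53e-05). AIL1 (LOC115704743) was higher, at 16.3 ± 0.478 FPKM in male and 7.91 ± 0.91 FPKM in female week 3 apices (log2 difference 0.96 ± 0.14, limma adjusted p = 0.00027). AIL6 (LOC115715034) was at 8.95 ± 2.23 FPKM in male and 4.87 ± 0.13 FPKM in female week 3 apices, a log2 difference of 0.74 ± 0.19 that was called (limma adjusted p = 0.00768) but not without male week 3 replicate 1 (adjusted p = 0.0683). The median log2 difference of the 3 was 0.74. From week 1 to week 3 in male apices AIL5 fell, by 1.15, and AIL1 rose, by 0.66, and in female apices limma called none of the 3, of which 1 had an unadjusted p under 0.05. The summed level of the family without AINTEGUMENTA was 28.1 to 31.9 FPKM in male week 3 and 21.2 to 23.2 FPKM in female week 3 libraries.

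D3-type cyclins drive cell division in young organs, and in Arabidopsis AINTEGUMENTA is known to sustain their expression. Of the 3 matched genes, 2 were lower in male than in female week 3 apices, where 28.6% of all genes tested were called lower, and the median log2 difference was -1.18. Cyclin-D3-1 (LOC115702964) was at 26.6 ± 0.363 FPKM in male and 63.9 ± 6.41 FPKM in female week 3 apices (log2 difference -1.23 ± 0.13). A cyclin-D3-3 gene (LOC115702731) was at 35.4 ± 2.9 and 81.6 ± 9.06 FPKM in the same groups (log2 difference -1.18 ± 0.14). The other cyclin-D3-3 gene (LOC115711182) was not called, at -0.05 ± 0.11. None of the 3 changed in female apices from week 1 to week 3 by limma, when AINTEGUMENTA was called higher, and none had an unadjusted p under 0.05 there. The Arabidopsis gene ARGOS, which acts upstream of AINTEGUMENTA, had no match among the listed genes.

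The wider set of carpel and ovule genes, 33 matches without the 2 members, moved in both directions between the sexes at week 3. Of 31 that reached the filter, 18 were lower and 9 higher in male week 3 than in female week 3 apices, where 28.6% and 31.7% of all genes were called, and 4 were not called. The median log2 difference was -0.84, against -0.02 over all genes tested. AGL11 (LOC133031811), the match of the ovule identity gene SEEDSTICK, had the largest fall, by 5.28 ± 0.22, to 1.01 ± 0.226 FPKM in male against 76.8 ± 9.9 FPKM in female week 3 apices. The gene described as bHLH086 and matched to INDEHISCENT (LOC115712570), a regulator of fruit opening and style development in Arabidopsis, fell by 2.74 ± 0.14. Higher in male apices were a gene described as AGAMOUS but with only 32% identity to SEEDSTICK (LOC115700192), by 6.22 ± 0.22, and zinc finger protein 6 (LOC115700338), matched to KNUCKLES, a repressor of the stem cell gene WUSCHEL, by 5.52 ± 0.19. The KNUCKLES match was at 44.8 ± 0.285 FPKM in male week 3 libraries and listed at 0 in both female week 3 libraries. WUSCHEL (LOC115711960), which keeps stem cells active, was also higher in male apices, at 2.66 and 5.77 FPKM in male week 3 against 0.203 and 0.403 FPKM in female week 3 libraries (log2 difference 1.94 ± 0.25). WUSCHEL is named here after its values were seen. The matches of KNUCKLES and NOZZLE and WUSCHEL averaged 1 FPKM or more in male week 3 apices alone, and those of INNER NO OUTER, INDEHISCENT and SUPERMAN (LOC115723168) in female week 3 apices alone. How they entered the test fixed their direction, and the median includes them. The matches of KNUCKLES and NOZZLE and WUSCHEL are among the 9 called higher. Those of INNER NO OUTER and INDEHISCENT are among the 18 called lower. Their calls are no independent result, and the counts include them. INNER NO OUTER is also counted among the YABBY genes, NOZZLE among the stamen genes and WUSCHEL among the meristem genes.

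**Figure D4:**
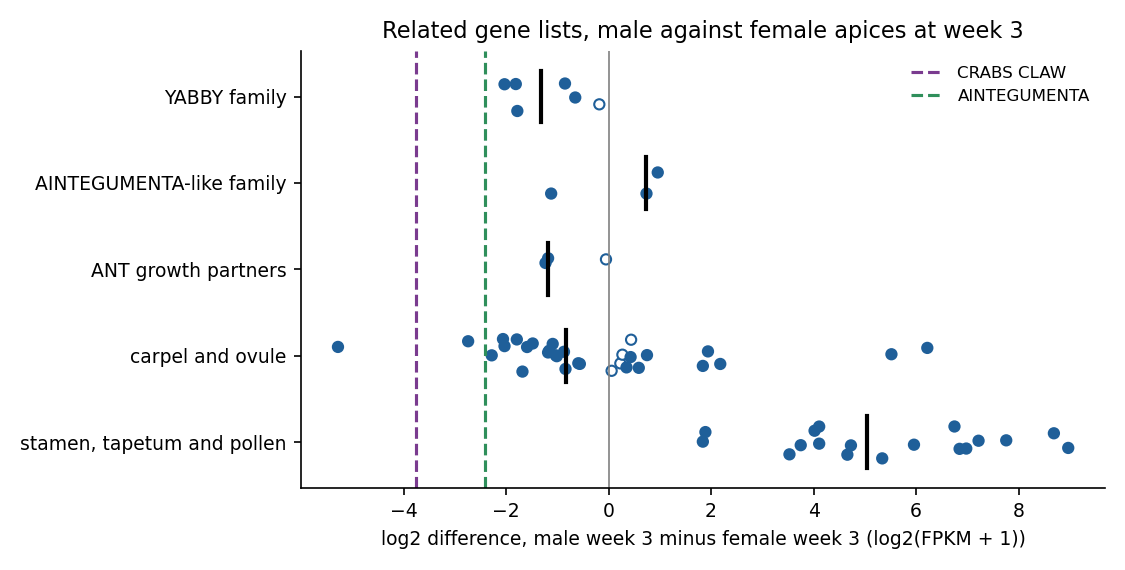
Log2 difference of male minus female week 3 apices for the tested genes of 5 lists; filled points were called by limma at adjusted p under 0.05, thick black bars are list medians, the vertical scatter within a list has no meaning, and dashed lines are CRABS CLAW (-3.75) and AINTEGUMENTA (-2.42). CRABS CLAW lies left of all 6 other YABBY genes and of every carpel and ovule gene except AGL11. The stamen, tapetum and pollen genes lie on the right, but 15 of the 18 entered the test through male week 3 apices alone, which fixed their side. The same holds for genes of the other lists that reached the filter in a single week 3 group, such as INNER NO OUTER.

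In female apices from week 1 to week 3, 11 of the 31 carpel and ovule genes rose and 4 fell, beside 18.7% and 16.5% of all genes tested, with a median log2 difference of 0.29 against 0.03 over all genes. The largest rises were those of the AGAMOUS gene LOC115697576, by 4.10 ± 0.26, AGL11, by 2.94 ± 0.22, MADS1 (LOC115698701), matched to SHATTERPROOF1, by 2.93 ± 0.18, and the INDEHISCENT match, by 2.76 ± 0.14. CRABS CLAW rose by 2.13 ± 0.24 in the same comparison. The matches of INDEHISCENT, INNER NO OUTER and SUPERMAN averaged 1 FPKM or more in female week 3 apices alone. How they entered the test fixed their direction here too. INDEHISCENT and INNER NO OUTER are among the 11, and the median includes all 3. In male apices over the same time 9 rose and 12 fell, beside 33.8% and 27.9% of all genes tested, with a median of -0.35 against 0.03. AGAMOUS (LOC115697576), which specifies stamens and carpels and acts in carpels together with CRABS CLAW in Arabidopsis, rose in male apices too, by 2.82 ± 0.26, to 37.7 ± 3.99 FPKM at week 3 against 4.54 ± 1.24 FPKM at week 1, while CRABS CLAW fell. The match of NOZZLE (LOC115695116), which starts spore-forming tissue in stamens and ovules, rose by 2.34 ± 0.14. The matches of NOZZLE and KNUCKLES and WUSCHEL averaged 1 FPKM or more in male week 3 apices alone, which fixed their direction here. These 3 are among the 9 that rose, and the median includes them. Between male and female apices at week 1 none of the 31 was called by limma, where 0.137% of all genes tested were, and 1 had an unadjusted p under 0.05.

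Few carpel and ovule genes were called at week 1 against vegetative apices, and those called are named after their values were seen. In female apices 3 of the 31 were higher, AGAMOUS (LOC115697576) by 1.75 ± 0.26, AGL11 (LOC133031811) by 2.50 ± 0.22 and MADS1 (LOC115698701) by 1.07 ± 0.18. In male apices AGAMOUS was 2.02 ± 0.26, AGL11 2.35 ± 0.22 and MADS1 1.29 ± 0.18 above the same vegetative libraries, and a BEL1-like gene (LOC115720529) was 1.32 ± 0.24 above them. CRABS CLAW thus was called at week 1 in both sexes beside 3 MADS-box genes of the list, of which AGAMOUS specifies stamens as well as carpels. Of all genes tested, 2.67% were called higher and 2.27% lower in female apices, and 3.54% and 2.86% in male apices. No gene of the list was called lower, which at such shares says little about the list. In fits of week 1 and vegetative libraries alone, AGL11 kept its call in female apices, AGAMOUS and MADS1 lost theirs in both sexes, and AGL11 and the BEL1-like gene lost theirs in male apices. AGL11 was at 1.01 ± 0.226 FPKM in male week 3 apices, near its 0.818 ± 0.432 FPKM in vegetative apices, and CRABS CLAW was likewise at 0.607 ± 0.104 and 0.491 ± 0.263 FPKM. AGAMOUS and MADS1 went the other way. They were called higher in male week 3 than in vegetative apices, by 4.84 ± 0.26 and 1.94 ± 0.18, where 34.8% of all genes tested were. Leaving out female week 1 replicate 2 ended the female call of AGAMOUS, at adjusted p = 0.058, and of MADS1, at 0.0898. Leaving out vegetative replicate 2 ended the female call of MADS1, at 0.0645, and the male call of the BEL1-like gene, at 0.0899. Of the YABBY genes YABBY5 was called at week 1, at -0.77 ± 0.11 in male and -0.69 ± 0.11 in female apices, and its female call was lost without vegetative replicate 2 or either female week 1 library, at adjusted p = 0.0573 to 0.089.

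The genes most like each member in pattern were ranked by the root mean square distance of log2(FPKM + 1), each gene centred on its own mean, over the 10 libraries. For CRABS CLAW the nearest with a described product were dirigent protein 5 (LOC115716167), at a distance of 0.451 log2 units, a CAULIFLOWER A gene matched to APETALA1 (LOC115698549), at 0.453, glyoxylase I 4 (LOC115715223), at 0.489, squamosa promoter-binding protein 1 (LOC115700826), at 0.498, and RADIALIS-like 1 (LOC115700854), at 0.500. The median distance over all genes tested was 1.493. Dirigent proteins guide the coupling of phenolic radicals in lignan formation, and squamosa promoter-binding proteins promote flowering. Dirigent protein 5 was at 8.6 ± 0.218 FPKM in male week 3 and 73.3 ± 14.1 FPKM in female week 3 apices. This order depends on the scale for a gene as low as CRABS CLAW: with 0.1 FPKM added in place of 1, only 2 of the 5 remained.

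AINTEGUMENTA had closer neighbours. They were Lea14 (LOC115706384), at 0.140 log2 units, piriformospora indica-insensitive protein 2 (LOC115711400), at 0.141, HOTHEAD (LOC115706950), at 0.153, the probable auxin efflux carrier 1c (LOC115699589), at 0.178, and a GDSL esterase/lipase (LOC115724494), at 0.198, with a median of 0.907 over all genes. All 5 remained with 0.1 FPKM added. HOTHEAD, which in Arabidopsis prevents the fusion of floral organs, was at 48.3 ± 4.42 FPKM in male week 3 and 229 ± 7.9 FPKM in female week 3 apices. The auxin efflux carrier, of the PIN family that directs auxin flow in organ primordia, was at 5.74 ± 0.325 FPKM in male week 3 and 29.8 ± 2.02 FPKM in female week 3 apices. The members were 1.120 log2 units apart by this measure, below the median distance from CRABS CLAW (1.493) and above that from AINTEGUMENTA (0.907). This placed AINTEGUMENTA 879th from CRABS CLAW among the genes tested and CRABS CLAW 13017th from AINTEGUMENTA.

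**Figure D5:**
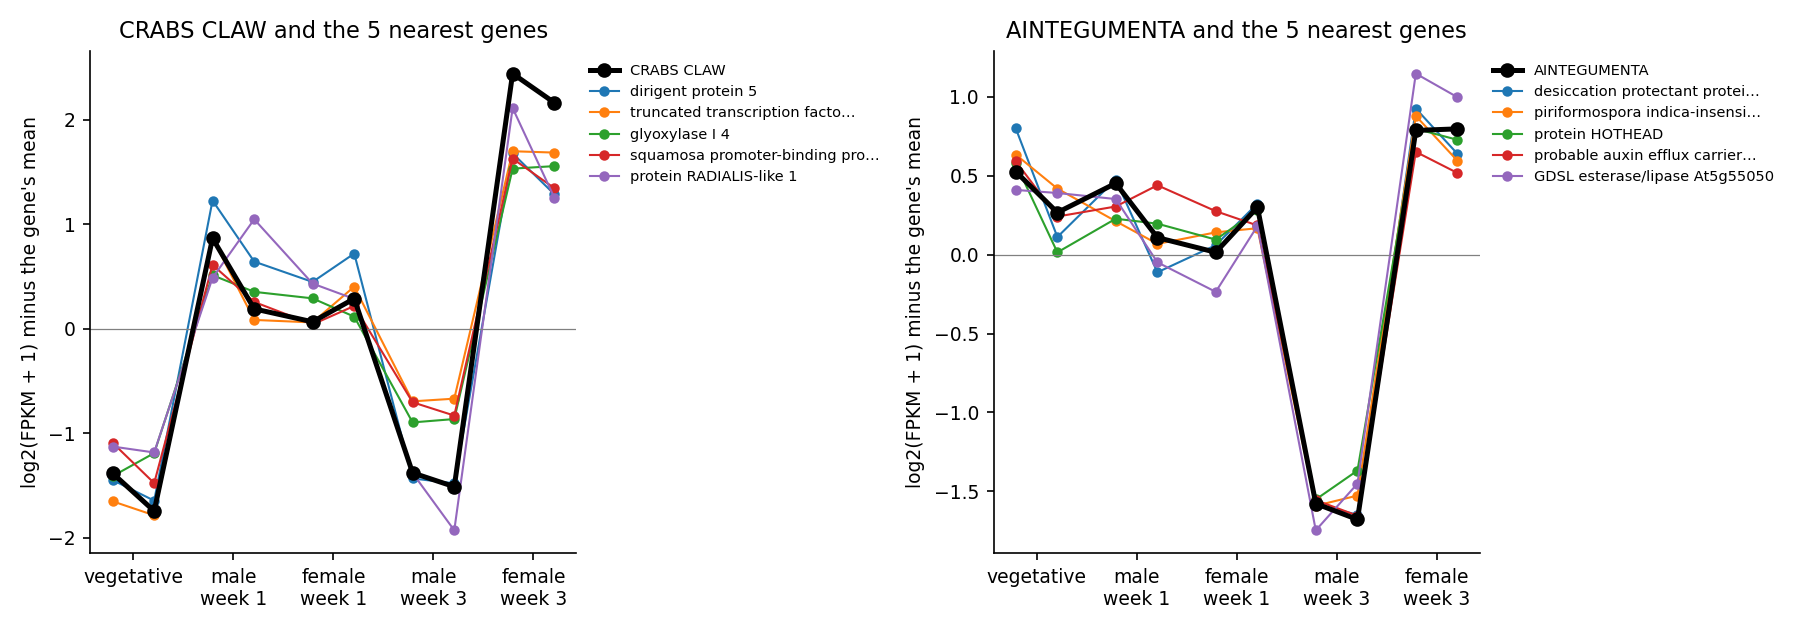
Log2(FPKM + 1) minus the gene's mean over the 10 libraries, for CRABS CLAW (left) and AINTEGUMENTA (right) in black and the 5 nearest genes with a described product in colour; the points of a group are replicates 1 and 2, and the y axes differ. The genes nearest to AINTEGUMENTA, at 0.140 to 0.198 log2 units, follow it more closely than those nearest to CRABS CLAW, at 0.451 to 0.500.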

How the data were processed

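The authors' deposited table gives, for each gene of assembly ASM2916894v1 per the file headers, a level in each of 10 libraries, read from the values as FPKM; FPKM and RPKM cannot be told apart. Which aligner, counter and test the authors used is not given in the sources used here. Per the labels' protocols, RNA was column-extracted with DNase treatment. The log2 fold changes, p-values and percent identities to Arabidopsis proteins deposited by the authors were used only where named.

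Groups and replicate numbers came from sample titles. limma 3.58.1 (R 4.3.3) was run on log2(FPKM + 1) of all 10 libraries with a mean for each group and trended, robust moderation; residual degrees of freedom were 5 and prior ones had a median of 4.63. P-values were 2-sided and adjusted over all 18309 genes. The method was tested on simulated data. No counting interval is possible without reads.

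The members and lists were chosen with earlier results of these data known. Lists were matched by the closest Arabidopsis locus, which 25053 genes had. Named were family members that reached the filter, up to 4 called carpel and ovule genes per comparison, and the 5 nearest genes. Alternatives were 0.1 FPKM added, other filters (none, 5 FPKM), median-ratio scaling, limma without trend and robust moderation, fits of the groups compared alone, a replicate block, and leaving out each library.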

Additional observations from a re-analysis of the deposited data

Results flagged for a closer look

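CRABS CLAW and AINTEGUMENTA, the only genes checked for a flag, were flagged because their change from week 1 to week 3 differed between the sexes. The test of that difference called 45.6% of all genes tested, 19.9% lower, so such a call was common. For CRABS CLAW the male change minus the female change was -4.10 ± 0.33 log2 units, and for AINTEGUMENTA it was -2.54 ± 0.22 (SE, limma). CRABS CLAW kept its call with each of the 8 libraries left out in turn, at -4.44 to -3.76, and AINTEGUMENTA did so at -2.72 to -2.37. In the same interval the summed stamen, tapetum and pollen markers were at 2208 to 2944 FPKM in male week 3 and 12.6 to 18.8 FPKM in male week 1 libraries, and their part in the difference was not tested.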

How the results depend on the processing

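Of 210 values of the 2 members under alternatives, 200 kept direction and call. With only the groups compared, CRABS CLAW in male week 1 against vegetative apices kept its 2.09 but not its call, and AINTEGUMENTA in female week 3 against vegetative apices, at 0.40, became called. Leaving out a library, AINTEGUMENTA in female week 3 against week 1 apices ranged from 0.49 to 0.78 and lost its call in 3 of 4 runs. Uncalled differences near 0 changed sign: AINTEGUMENTA ranged from -0.29 to 0.06 in male week 1 against vegetative and from -0.05 to 0.29 in male against female week 1 apices, CRABS CLAW from -0.06 to 0.30 in male week 3 against vegetative apices, and LOC115711182 from -0.17 to 0.07 and LOC115725187 from -0.41 to 0.04 in male against female week 3 apices. YABBY2 (LOC115716658) lost its call in female week 3 against week 1 apices in 7 alternatives, at 0.28 to 0.59 in 3 runs without a library and 0.51 in the others.

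Called genes in male against female week 1 apices numbered 25, and 16 with 0.1 FPKM added, 5 with no filter, 15 without trend and robust moderation, 0 in limma with those groups alone (835 at an unadjusted p under 0.05) and 5 to 86 without a library. In female week 1 against vegetative apices 904 were called, 394 with those groups alone and 230 to 502 without a library, and in male week 1 against vegetative apices 1172, 8 and 658 to 1531. Leaving out a library gave 4015 to 5249 for 6690 in female week 3 against vegetative and 3752 to 4460 for 6438 in female week 3 against week 1 apices. The week 1 calls of the carpel genes and of YABBY5 against vegetative apices were mostly lost with those groups alone. The cause was not tested.

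With a replicate block CRABS CLAW stayed at -3.75 in male against female week 3 apices, and no call of the members changed. Deviations of same-numbered libraries correlated at -0.42 to 0.21, over 0.1 in 2 of 10 pairs, so the numbers were not taken to pair libraries. Crossing the female week 1 numbers, chosen after seeing the data, gave 34 called genes in male against female week 1 and 6992 in female week 3 against week 1 apices. FPKM without read counts leaves values near 0, such as CRABS CLAW in vegetative apices, imprecise.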
